A study of Mus musculus with 9 samples.

Results

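The Nrf2 antioxidant response was followed through 10 genes in the E18.5 epidermis of mice lacking the epithelial splicing regulators Esrp1 and Esrp2. The genes were Nfe2l2, which encodes Nrf2 itself, Keap1, Gclc, Gclm, Slc7a11, Txnrd1, Srxn1, Nqo1, Gsta4 and Hmox1. Their rows were chosen by gene symbol from a table of 38203 genes. A measured value, the highest mean FPKM, would have decided only between rows of a repeated symbol, and no symbol was repeated. All 10 were found, and all 10 passed the filter on low values (a genotype mean over 0.1 FPKM), which left 16897 genes to test. Earlier results of these data were known when the 10 genes were listed, so their counts describe these libraries and are no independent evidence for the pathway.

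Nrf2 is a basic leucine zipper transcription factor that, with a small Maf protein, binds the antioxidant response element in the promoters and enhancers of cytoprotective genes. Keap1 is an adaptor of a Cul3 ubiquitin ligase that keeps Nrf2 short-lived, and oxidants or electrophiles that modify Keap1 cysteines let Nrf2 accumulate, so that the pathway is controlled mainly at the level of protein. In skin, Nrf2 targets supply glutathione and detoxifying enzymes to keratinocytes, and lasting activation of Nrf2 in keratinocytes is known to alter cornification. The other 8 genes are widely used as readouts: Gclc and Gclm form the enzyme of the rate-limiting step of glutathione synthesis, Slc7a11 imports cystine for it, Txnrd1 and Srxn1 restore thioredoxin and peroxiredoxins, Nqo1 and Gsta4 detoxify quinones and lipid aldehydes, and Hmox1 breaks down haem.

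RNA was sequenced from the epidermis of single embryos on a mixed C57BL6/129Sv background, with the epidermis freed from the dermis by a long cold trypsin digestion. WT was represented by 2 libraries, KO (Esrp1-/-, Esrp2+/+) by 3, KH (Esrp1-/-, Esrp2+/-) by 2 and DKO (Esrp1-/-, Esrp2-/-) by 2. By the paper's breeding scheme, each mutant genotype came from a cross of its own. Both parents of DKO embryos, and a parent of KH embryos, lacked Esrp2, so these crosses cannot give WT embryos. DKO and KH embryos were therefore not littermates of WT embryos. For every gene, the part of cross and litter in the differences was not tested. Both null alleles were present throughout the body of the embryo: Esrp1 by excision of floxed exons with Zp3-Cre in the germline, and Esrp2 from a targeted embryonic stem cell line, so that a change in the epidermis need not have arisen there. The control libraries are WT by their labels, but the extraction protocol describes embryos without Esrp2. Esrp2 measured 118 and 136 FPKM in the WT libraries and 0.0843 and 0.0463 FPKM in DKO. Esrp1 mRNA, which can persist from the deleted allele, measured 18.2 to 55.1 FPKM in the 7 Esrp1-null libraries and 119 and 142 FPKM in WT.

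Expression was given as FPKM, the fragments of a gene per unit of exon length and of mapped library, which allows levels to be set side by side between genes. The table holds no read counts, so the depth behind each value is unknown here, and FPKM summed to 713318 to 1130713 per library. Markers of the epidermal layers were abundant in every library, with basal keratinocyte genes summing to 4040 to 8390 FPKM and spinous genes to 21300 to 65900 FPKM, whereas 4 endothelial and 5 skeletal muscle genes each stayed below 1 FPKM. Xist, the transcript of the inactive X chromosome, was at 76.2 to 180 FPKM in all 3 KO libraries and at 111 FPKM in WT library 2, and at 0.178 FPKM or less in the other 5, so sex was unevenly spread over the genotypes and its part in the results was not tested. Fewer cells of a type and less RNA per cell cannot be told apart in these bulk libraries.

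The promoters of the genes show what kind of element the pathway reads. RefSeq promoters (GRCm38.p6, 250 bases before to 50 after the start) were at hand for 7 of the 10 genes, with 3 starts for Txnrd1 and 1 for each of the others, and not for Hmox1, Gclc and Gsta4. Both strands were searched for TGACNNNGC, the core of the antioxidant response element, and for its variant TGAGNNNGC, and the matches are in capitals below. The promoters shown are those of the genes on which the expression results turn, and of Gclm for contrast.
Nqo1, chr8:107403156-107403455, minus strand: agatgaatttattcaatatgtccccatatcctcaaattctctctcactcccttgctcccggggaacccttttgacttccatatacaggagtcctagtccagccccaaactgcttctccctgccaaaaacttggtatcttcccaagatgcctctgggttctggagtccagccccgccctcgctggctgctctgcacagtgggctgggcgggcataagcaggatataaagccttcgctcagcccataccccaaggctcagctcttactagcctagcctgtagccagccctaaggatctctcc
Srxn1, chr2:152105274-152105573, plus strand: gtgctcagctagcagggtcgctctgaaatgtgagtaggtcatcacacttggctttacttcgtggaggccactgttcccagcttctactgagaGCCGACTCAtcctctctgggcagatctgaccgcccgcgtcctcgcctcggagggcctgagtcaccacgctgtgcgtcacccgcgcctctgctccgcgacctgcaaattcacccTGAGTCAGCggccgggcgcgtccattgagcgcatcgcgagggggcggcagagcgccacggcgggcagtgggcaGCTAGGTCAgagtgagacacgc
Slc7a11, chr3:50443564-50443863, minus strand: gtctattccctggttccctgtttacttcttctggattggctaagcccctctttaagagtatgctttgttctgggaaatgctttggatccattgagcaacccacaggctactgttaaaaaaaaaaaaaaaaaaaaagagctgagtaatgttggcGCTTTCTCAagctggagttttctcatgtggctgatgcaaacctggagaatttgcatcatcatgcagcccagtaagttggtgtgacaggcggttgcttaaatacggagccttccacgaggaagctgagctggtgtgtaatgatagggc
Txnrd1, chr10:82858956-82859255, plus strand: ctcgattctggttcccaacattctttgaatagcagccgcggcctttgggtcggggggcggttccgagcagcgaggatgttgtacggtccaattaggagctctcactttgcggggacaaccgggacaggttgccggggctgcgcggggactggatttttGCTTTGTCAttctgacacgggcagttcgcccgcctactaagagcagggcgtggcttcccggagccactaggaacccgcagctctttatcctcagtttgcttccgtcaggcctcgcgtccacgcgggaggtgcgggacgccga
Gclm, chr3:122245307-122245606, plus strand: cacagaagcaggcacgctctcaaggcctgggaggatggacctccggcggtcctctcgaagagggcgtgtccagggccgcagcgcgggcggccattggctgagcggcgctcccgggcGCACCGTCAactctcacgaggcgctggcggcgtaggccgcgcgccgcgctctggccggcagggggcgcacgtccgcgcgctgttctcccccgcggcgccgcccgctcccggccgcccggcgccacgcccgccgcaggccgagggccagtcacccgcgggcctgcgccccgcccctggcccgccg
The Srxn1 promoter held 3 matches, TGAGTCAGC at position -45 from the start, GCCGACTCA at -158 and GCTAGGTCA at 29, the last 2 being the reverse complement of the element. Slc7a11 held 1 variant match at -97, and Txnrd1 and Gclm held 1 core match each at -92 and -134. The Txnrd1 match is in the window printed above, and those beginning at chr10:82833701 and chr10:82860091 held none. Nfe2l2 held TGACTCCGC at -240. The windows of Nqo1 and Keap1 held none, which says only that these letters are not in this stretch. Across all 32851 RefSeq promoters, 12.4% held the core, 17.6% the variant and 27.8% either, so a match is common and is given as a description only.

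In DKO against WT, the detoxifying enzymes had the largest log2 differences among the 10 genes. Nqo1, the NAD(P)H quinone dehydrogenase most often used as an Nrf2 readout, measured 1.88 and 1.63 FPKM in WT, 2.97 and 2.16 FPKM in KH, 3.36, 3.25 and 3.02 FPKM in KO, and 5.18 and 5.64 FPKM in DKO. Every Esrp1-null library lay above both WT libraries, both DKO libraries lay above all others, and no 2 genotypes overlapped. In the limma fit of all tested genes on log2(FPKM + 1), Nqo1 rose in DKO against WT by 1.22 ± 0.20 (SE) on the log2 scale, an average of 5.41 against 1.76 FPKM or 3.08-fold (Benjamini-Hochberg adjusted p = 0.0378). It was the only one of the 10 genes called in DKO against WT, a call needing both an adjusted p under 0.05 and mean FPKM values over 2-fold apart, and 0.728% of all tested genes (123) were called. The call was narrow. It was lost when any single DKO, KO or WT library was left out (log2 difference 1.15 to 1.28, adjusted p = 0.0579 for KO library 3 to 0.359 for WT library 2), when values were rescaled to sum to the same total (adjusted p = 0.223) and when no filter was set (adjusted p = 0.074), while its direction held in all 21 alternatives.

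Gsta4, a glutathione S-transferase that conjugates the lipid peroxidation product 4-hydroxynonenal, was more abundant than Nqo1, at 27.1 against 3.23 FPKM on average over the 9 libraries. It measured 15.9 and 16.5 FPKM in WT, 25.0 and 20.5 FPKM in KH, 19.8, 29.2 and 30.1 FPKM in KO, and 51.7 and 35.2 FPKM in DKO. Both DKO libraries again lay above all others and every null library above both WT libraries, with KO and KH overlapping. The difference of DKO from WT was 1.34 ± 0.27 (SE) in log2(FPKM + 1), or 2.68-fold in average FPKM, which missed the threshold (limma adjusted p = 0.0801) and passed it under 3 of the 21 alternatives. Gsta4 lies on chromosome 9 (mm10, 78191966 to 78209348), close to Gclc at 77754535 to 77794485, whose levels did not follow this order.

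**Figure D1:**
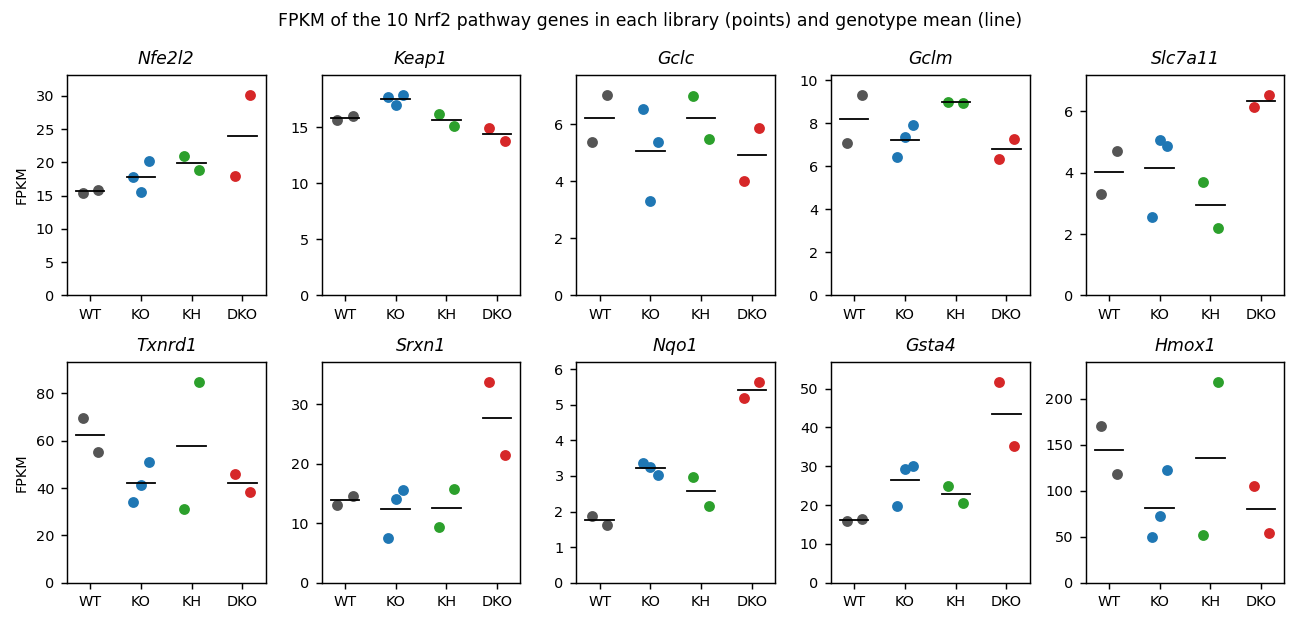
FPKM (vertical axes, each starting at 0) of the 10 genes in WT, KO, KH and DKO epidermis, with 1 point for each of the 9 libraries and a line at the mean of the genotype. The DKO points of Slc7a11, Srxn1, Nqo1 and Gsta4 lie above the other 7 libraries, while Hmox1 and Txnrd1 spread most within KH.

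Position had to be considered for Nqo1, which lies on chromosome 8 (mm10, 107388225 to 107403206, minus strand), 1.25 Mb from the deleted Esrp2 gene at 106130319 to 106136974. DNA around the Esrp2 null allele comes from the embryonic stem cell line and travels with it. That line was of C57BL6 origin and its chimeras were bred to C57BL/6J mice, while the 129Sv part of the background came with the hybrid cells in which Esrp1 was targeted. Which strain's DNA each embryo carried near Nqo1 was not tested. In DKO against WT the loss of Esrp2, a linked variant of Nqo1 and the separate crosses cannot be told apart. Of 142 genes tested within 10 Mb of Esrp2, 2 were called in DKO against WT (1.41%, beside 0.728% of all tested genes), Nqo1 and 1810019D21Rik, the second of which overlaps the Esrp2 locus and fell by 3.58 on the log2 scale. The median log2 difference of the 142 genes was 0.04, 10 of them (7.04%, beside 5.33% of all tested genes) had both DKO libraries above the other 7, and Nqo1 had the highest difference of all. KO embryos carry no Esrp2 null allele, and Nqo1 averaged 3.21 ± 0.176 FPKM (SD, n = 3) there against 1.76 ± 0.174 FPKM (SD, n = 2) in WT, a log2 difference of 0.61 ± 0.18 (SE) that did not pass (limma adjusted p = 0.853; unadjusted 0.00979). Hmox1, also on chromosome 8, lies 31.0 Mb from Esrp2.

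**Figure D2:**
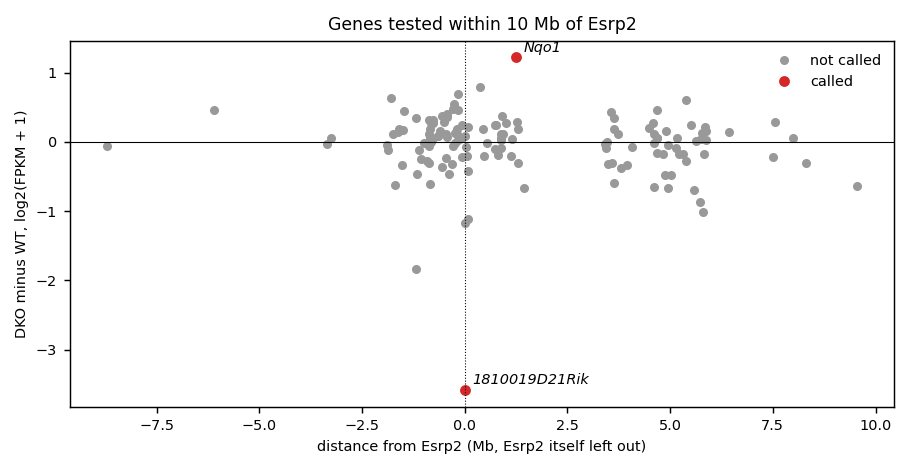
Difference between DKO and WT in log2(FPKM + 1) (vertical axis) for the 142 genes tested within 10 Mb of Esrp2, against their distance from it in Mb (horizontal axis), with called genes in red. Nqo1 stands highest at 1.22, and 1810019D21Rik, which overlaps Esrp2, lowest at -3.58.

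Neither of the 2 thiol repair genes was called in any comparison. Srxn1, the sulfiredoxin that rescues overoxidised peroxiredoxins and whose promoter held 3 element matches, measured 33.8 and 21.5 FPKM in DKO, against 13.1 and 14.6 FPKM in WT, 9.34 and 15.7 FPKM in KH, and 7.50, 14.1 and 15.6 FPKM in KO. Only the DKO libraries stood apart, and the other 3 genotypes overlapped. The log2 difference was 0.91 ± 0.38 (SE) from WT (1.99-fold in average FPKM, limma adjusted p = 0.341), 1.12 ± 0.35 from KO (adjusted p = 0.383) and 1.09 ± 0.38 from KH (adjusted p = 0.638). None passed. Txnrd1, the cytosolic thioredoxin reductase, measured 69.6 and 55.3 FPKM in WT, 33.9, 41.3 and 50.8 FPKM in KO, 31.1 and 84.8 FPKM in KH, and 46.0 and 38.3 FPKM in DKO. The KO and DKO libraries all lay below WT, while the KH libraries enclosed all the rest. The log2 difference from WT was -0.55 ± 0.42 (SE) in DKO (limma adjusted p = 0.567) and -0.57 ± 0.38 in KO (adjusted p = 0.853), so neither differed beyond the spread between libraries.

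Hmox1, the inducible haem oxygenase, had the highest level of the 10 genes and the widest spread within a genotype. It measured 170 and 118 FPKM in WT, 49.5, 72.5 and 122 FPKM in KO, 51.8 and 218 FPKM in KH, and 105 and 54.1 FPKM in DKO. Within KH, library 2 stood 4.20-fold above library 1, a wider gap than between any pair of genotype means. The log2 difference of DKO from WT was -0.91 ± 0.66 (SE), with a 95% interval of -2.41 to 0.60 (limma adjusted p = 0.556), and that of KO from WT was -0.89 ± 0.60 (adjusted p = 0.853).

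Hmox1 and Txnrd1 varied together from library to library. Of the 36 pairs of libraries, 34 were ordered alike by both genes, and 70 of the other 16896 tested genes (0.414%) matched Hmox1 in at least as many pairs. This was the highest count between any of the pathway genes followed here, the next being 29 for Gsta4 and Nqo1. Hmox1 and Nqo1 were ordered alike in 11 pairs, and Gclm and Nqo1 in 8, the lowest count. The share for Hmox1 and Txnrd1 is thus that of the highest count, and is not adjusted for that choice. By root mean square distance over the 9 libraries, the genes most like Hmox1 among the 12197 compared were Esyt3 (0.124), Stk10 (0.144) and 2310014L17Rik (0.165), and those most like Txnrd1 were Cnst (0.101), Slc19a2 (0.104) and Tmprss11g (0.112). The differentiation markers also differed between libraries of 1 genotype. The 5 listed granular and cornified layer genes, all found, summed to 3790 and 11600 FPKM in the KH libraries, the first of which was also the lower for Hmox1 and Txnrd1. They summed to 4900, 11200 and 9090 FPKM in KO, 10800 and 5430 FPKM in DKO, and 10400 and 8240 FPKM in WT, and none of them was at 0 in every library or called in DKO, KH or KO against WT. Their part in the levels of Hmox1 and Txnrd1 was not tested.

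Blood and immune cell markers were set beside Hmox1 because red blood cells carry haem and macrophages express Hmox1. The red blood cell list, 7 of 9 genes found and led by Hbb-b1, summed to 432 and 1520 FPKM in DKO, 93.0 to 624 FPKM in WT, 106 to 587 FPKM in KO and 15.4 to 172 FPKM in KH. The macrophage and antigen presenting cell list, 10 of 11 genes found, summed to 79.2 to 164 FPKM in DKO, 43.0 to 77.2 FPKM in WT, 69.4 to 146 FPKM in KO and 75.9 to 196 FPKM in KH. No gene of either list was called in DKO, KH or KO against WT. The summed levels of 4 further lists lay apart in some genotypes. The 5 basal keratinocyte genes, all found, summed to 6350 and 7290 FPKM in DKO against 5200 and 5260 FPKM in WT, with KH at 4040 to 7440 FPKM and KO at 5260 to 8390 FPKM, so that both DKO libraries lay above both WT libraries. Krt5, Krt14 and Itga6 followed this order. Krt15, at 655 and 288 FPKM in DKO against 990 and 1110 FPKM in WT, and Trp63 went the other way. The 5 melanocyte genes, all found, summed to 42.4 to 46.6 FPKM in WT, 66.4 to 80.5 FPKM in KO, 55.9 to 148 FPKM in KH and 93.1 to 204 FPKM in DKO, so that every null library lay above both WT libraries, as for Nqo1 and Gsta4. Dct, Tyr and Mlana each followed this order, but Pmel did not in KH library 2. Tyrp1 in KO lay below WT, at 0.986, 0.995 and 0.868 FPKM against 1.02 and 0.997 FPKM. The 4 spinous genes, all found, summed to 45200 to 60300 FPKM in WT, 21300 to 65900 FPKM in KO, 27600 to 37800 FPKM in KH and 25100 to 36300 FPKM in DKO, so that the KH and DKO libraries lay below both WT libraries. No basal, melanocyte or spinous gene was called in DKO, KH or KO against WT, and none was at 0 in every library. The hypoxia list, 7 of 8 genes found, summed to 176 to 270 FPKM in DKO, below the 280 to 468 FPKM in WT and the 335 to 350 FPKM in KH, with KO at 239 to 427 FPKM, and 1 of its genes, Bnip3, was called lower in DKO than in WT. The part of these 6 lists in the differences of the 10 genes was not tested.

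**Figure D3:**
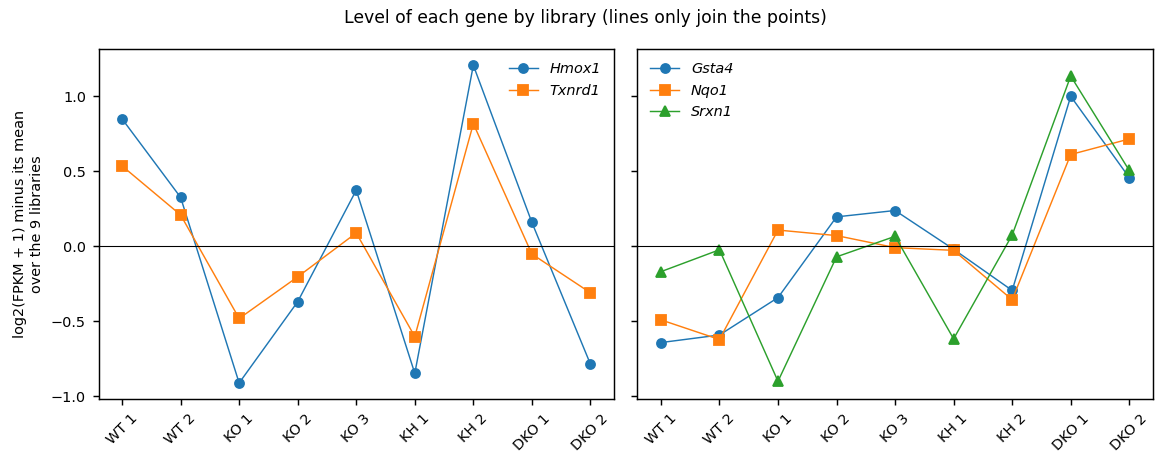
log2(FPKM + 1) of each gene minus its mean over the 9 libraries (vertical axis) by library (horizontal axis), for Hmox1 and Txnrd1 (left) and for Gsta4, Nqo1 and Srxn1 (right). Hmox1 and Txnrd1 rise and dip in the same libraries, whereas the 3 genes on the right are highest in the DKO libraries.

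None of the 3 glutathione genes was called in any comparison. Slc7a11, the cystine carrying subunit of system xc-, measured 6.13 and 6.54 FPKM in DKO, above all other libraries, against 3.30 and 4.72 FPKM in WT, 3.71 and 2.19 FPKM in KH, and 2.55, 5.06 and 4.88 FPKM in KO. The log2 difference of DKO was 0.56 ± 0.33 (SE) from WT (limma adjusted p = 0.467), 0.55 ± 0.30 from KO (adjusted p = 0.895) and 0.92 ± 0.33 from KH (2.15-fold in average FPKM, adjusted p = 0.672), so none passed. Gclc, the catalytic subunit of glutamate cysteine ligase, measured 4.0 and 5.87 FPKM in DKO and 5.39 and 7.04 FPKM in WT, and ranged from 3.30 to 6.98 FPKM in KO and KH. The genotypes overlapped, with a log2 difference of -0.29 ± 0.31 (SE) in DKO against WT and a 95% interval of -1.01 to 0.42. Its lowest values fell in KO library 2 and DKO library 1, the libraries with the 2 highest FPKM sums (1130713 and 1112137), and the genes most like it, Cep68, Atxn1l and Taf2, were lowest in the same 2 libraries. Gclm, the modifier subunit, measured 6.33 and 7.27 FPKM in DKO and 7.11 and 9.34 FPKM in WT, a log2 difference of -0.23 ± 0.21 (SE). In the table it shares 1 locus with Dnttip2, which was expressed more strongly, so its value is uncertain.

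Neither regulator was called in any comparison. Nfe2l2 measured 15.4 and 15.9 FPKM in WT, 17.8, 15.5 and 20.2 FPKM in KO, 20.9 and 18.9 FPKM in KH, and 17.9 and 30.2 FPKM in DKO. The DKO mean rested on library 2, since library 1 lay within the range of KO. The log2 difference of DKO from WT was 0.55 ± 0.26 (SE; limma adjusted p = 0.393). Keap1 was the most even of the 10 genes, at 13.8 to 17.9 FPKM over all 9 libraries. Both DKO libraries, at 14.9 and 13.8 FPKM, were the lowest, yet the log2 difference from WT was only -0.13 ± 0.17 (SE; adjusted p = 0.756), and the 95% interval of -0.52 to 0.26 leaves out any 2-fold change on this scale. These values are of mRNA, and Nrf2 protein was not measured in these files.

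**Figure D4:**
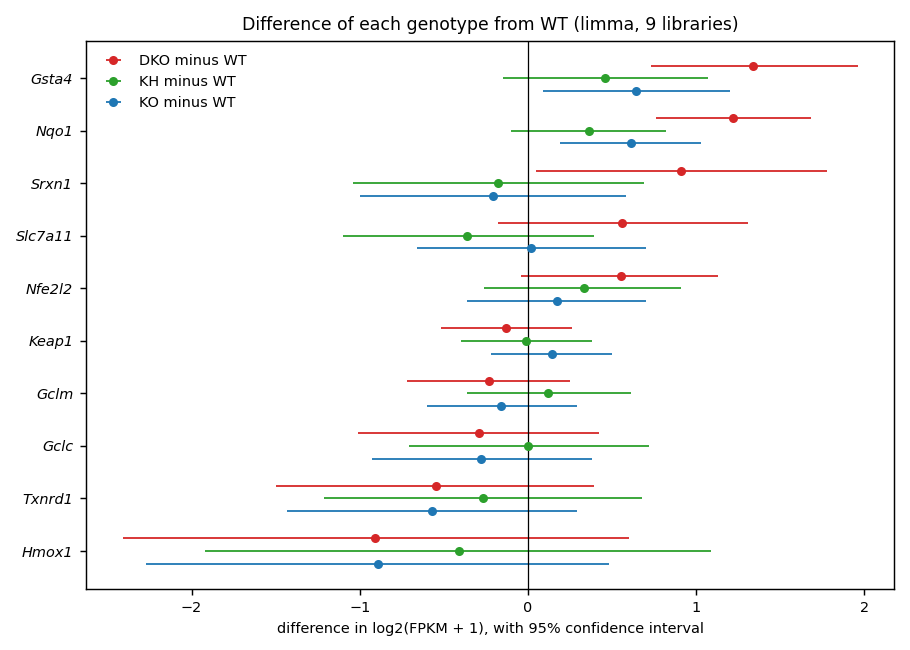
Difference of DKO, KH and KO from WT in log2(FPKM + 1) for each of the 10 genes (horizontal axis), with bars for the 95% confidence interval of the limma fit over 9 libraries. The DKO interval of Nqo1 runs from 0.76 to 1.68 and that of Gsta4 from 0.73 to 1.96, while those of Hmox1 and Txnrd1 are widest and cross 0.

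Over the whole set, 5 genes were higher and 5 lower in DKO than in WT, with a median log2 difference of 0.21 against 0.02 over all tested genes. Without a model, 4 of the 10 genes (Slc7a11, Srxn1, Nqo1 and Gsta4) had both DKO libraries above the other 7, which was so for 5.33% of all tested genes. Keap1 alone had both DKO libraries below the other 7, as had 5.56% of all genes. In Nqo1 and Gsta4 every null library exceeded both WT libraries (5.07% of all genes), and in none of the 10 did every null library lie below both (5.08%). The set of 4 was the same in number under rescaling to TPM, median ratio scaling and quantile normalization. At an unadjusted p below 0.05, 3 genes (Nqo1, Gsta4 and Srxn1) were higher in DKO than in WT and none lower, beside 6.15% and 7.60% of all genes.

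No member was called by limma in the other 6 comparisons. KH against WT had 5 called genes (0.0296%) and no member at an unadjusted p below 0.05, at which 1.63% of all genes were higher and 2.09% lower. In it the log2 difference was 0.36 ± 0.20 (SE) for Nqo1 and 0.46 ± 0.27 for Gsta4, and both KH libraries exceeded both WT libraries for these and for Nfe2l2, as in 15.3% of all genes. KO against WT also had 5 called genes (0.0296%) and 2 members higher and none lower at an unadjusted p below 0.05 (2.25% and 2.27% of all genes), Nqo1 and Gsta4, the latter with a difference of 0.64 ± 0.24. KO, KH and DKO were compared with the same 2 WT libraries, so these contrasts are not independent.

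The mutants were also compared with each other. All KO libraries and no DKO or KH library had high Xist, so sex and genotype cannot be told apart in DKO against KO or in KH against KO. DKO against KO had 108 called genes (0.639%) and 3 members higher at an unadjusted p below 0.05 (3.67% of all genes), Srxn1 as above, Nqo1 at 0.61 ± 0.18 (SE; limma adjusted p = 0.377) and Gsta4 at 0.70 ± 0.24 (adjusted p = 0.507). DKO against KH had 72 called genes (0.426%) and 4 such members (3.2% of all genes), Srxn1 and Slc7a11 as above, Nqo1 at 0.86 ± 0.20 (adjusted p = 0.245) and Gsta4 at 0.88 ± 0.27 (adjusted p = 0.468). KH against KO had no gene called by limma, with 0.58% of all genes higher and 0.515% lower at an unadjusted p below 0.05. There the Nqo1 difference of -0.25 had a 95% interval of -0.67 to 0.17, so these neighbours in the order of levels were not separated beyond their spread. When all 7 null libraries were set against WT, 17 genes were called (0.101%), and Nqo1 differed by 0.73 ± 0.16 (adjusted p = 0.277) and Gsta4 by 0.82 ± 0.22 (adjusted p = 0.367), these being the 2 members higher at an unadjusted p below 0.05 (3.88% of all genes).

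The pathway was then followed through 91 further genes in 9 lists, of which 89 were tested. In DKO against WT, 4 of them were called higher and 1 lower, beside 0.479% and 0.249% of all tested genes, and their median log2 difference was 0.13 against 0.02 over all tested genes. At an unadjusted p below 0.05, 19 were higher and 5 lower, beside 6.15% and 7.60% of all tested genes. None was called in KH or KO against WT by limma, where 1 was higher and 1 lower in KH, and 10 higher and 1 lower in KO, at an unadjusted p below 0.05. The shares of all tested genes were 1.63% and 2.09% in KH, and 2.25% and 2.27% in KO.

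Of the 5 called genes, 3 came from the list of 5 epidermal genes linked to Nrf2. This list, like the others, was chosen with earlier results of these data known, so its calls are no independent evidence for the pathway. Slpi, a secreted protease inhibitor, averaged 75.2 ± 12.4 FPKM (SD, n = 2) in DKO and 0.303 ± 0.0854 in WT, a log2 difference of 5.86 (limma adjusted p = 2.73e-05). Sprr2d, a small proline-rich protein of the cornified envelope with close paralogs that make its value uncertain, averaged 823 and 93.0 FPKM in the same genotypes (3.26, adjusted p = 0.0414). Epgn, an epidermal growth factor receptor ligand, averaged 8.91 and 0.824 FPKM (2.35, adjusted p = 0.0201). In all 3, both DKO libraries lay above the other 7, and so did those of Sprr2h, at 263 and 220 FPKM (adjusted p = 0.133). The paper reported both Sprr genes as raised in DKO together with other Sprr, Lce, S100 and keratin genes. Their rise is thus not particular to this list. Elovl3 was near 0 throughout, at 0.635 FPKM or less.

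Among the antioxidant enzymes, 1 gene was called higher and 1 lower. Gpx2, an epithelial glutathione peroxidase and known Nrf2 target, measured 1.48 and 1.82 FPKM in DKO and at most 0.250 FPKM elsewhere (log2 difference 1.14 ± 0.12 (SE), limma adjusted p = 0.00234). That was 8.34-fold in average FPKM, from a low WT mean of 0.198 FPKM. Sod3, the extracellular superoxide dismutase, averaged 0.205 ± 0.150 FPKM (SD, n = 2) in DKO and 12.6 ± 0.177 in WT, so that it fell by 3.51 on the log2 scale (adjusted p = 0.0249). Of these calls Slpi held in all 21 alternatives, Gpx2 in 20, Epgn in 15, Sod3 in 13 and Sprr2d in 11. Those of Epgn, Sod3 and Sprr2d were lost without either WT library or without DKO library 2, with adjusted p between 0.0535 and 0.28. Without DKO library 1 those of Sod3 and Sprr2d were lost too (adjusted p = 0.165 and 0.222), as were those of Sod3 and Epgn without KO library 2 (0.0515 and 0.05), and that of Sprr2d without KO library 3 or either KH library (0.0614 to 0.0912).

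Apart from these, no gene of the lists was called in DKO against WT, including the most abundant. The 10 genes of glutathione synthesis and use had a median log2 difference of 0.12, with 6 higher and 4 lower in DKO than in WT and, at an unadjusted p below 0.05, 2 higher and 0 lower (6.15% and 7.60% of all tested genes). The most abundant were Ggct, at 368 FPKM in DKO against 681 FPKM in WT, Glrx, at 444 against 795 FPKM, and Gpx1, at 314 against 298 FPKM. Chac1, which degrades glutathione and was picked after its values were seen, averaged 8.59 against 2.99 FPKM (1.25 ± 0.38, adjusted p = 0.212), with both DKO libraries above the other 7. Of 18 glutathione S-transferases tested, 12 were higher and 6 lower in DKO than in WT, with a median of 0.16, and 5 had an unadjusted p below 0.05, all higher (6.15% of all tested genes). Gsto1, the most abundant, averaged 905 FPKM in DKO against 466 FPKM in WT (0.96 ± 0.30 (SE), limma adjusted p = 0.23), Gsta1 252 against 215 FPKM and Mgst2 297 against 172 FPKM. The 12 thioredoxin and peroxiredoxin genes had a median of 0.00, with 6 higher and 6 lower, and at an unadjusted p below 0.05 3 were higher and 1 was lower. The most abundant were Prdx5, at 692 against 822 FPKM, Prdx2, at 558 against 709 FPKM, and Prdx1, at 369 against 433 FPKM. Of genes picked after their values were seen, Txnip, an inhibitor of thioredoxin, averaged 111 against 38.5 FPKM (1.52 ± 0.40, adjusted p = 0.165) and Prdx6 52.1 against 87.5 FPKM (-0.74 ± 0.20, adjusted p = 0.164). Quinone, aldehyde and xenobiotic enzymes had a median of 0.20 over 17 genes, of which 14 were higher and 3 lower, with 3 higher and 0 lower at an unadjusted p below 0.05. They were led in level by Akr1a1, at 330 against 270 FPKM, and Akr1b3, an aldose reductase picked after its values were seen, averaged 22.4 against 10.2 FPKM (1.08 ± 0.41, adjusted p = 0.306). Iron and haem genes had a median of -0.09 over 8 genes, with 1 higher and 2 lower at an unadjusted p below 0.05 (6.15% and 7.60% of all tested genes). There Fth1, the ferritin heavy chain, averaged 672 against 441 FPKM (0.60 ± 0.31, adjusted p = 0.423) and Ftl1 215 against 99.6 FPKM (1.12 ± 0.43, adjusted p = 0.303). Hmox2, the constitutive haem oxygenase, averaged 30.8 against 49.4 FPKM (-0.67 ± 0.22, adjusted p = 0.244), and Fech, which makes haem and was picked after its values were seen, 10.3 against 23.5 FPKM (-1.11 ± 0.28, adjusted p = 0.141). In both, the DKO libraries lay below the other 7. The list of superoxide dismutases and catalase, with 4 genes, had a median of -0.16, with 0 higher and 1 lower at an unadjusted p below 0.05, and the 6 NADPH supplying genes a median of -0.20. Of the latter 5 were lower in DKO than in WT, such as Pgd at 64.4 against 86.5 FPKM and Tkt at 70.1 against 75.3 FPKM, and 1 was higher, Taldo1 at 133 against 123 FPKM, with none at an unadjusted p below 0.05. Among Nrf2 partners and regulators the median was 0.13 over 9 genes, with 1 higher and 1 lower at an unadjusted p below 0.05. There Cul3 averaged 87.2 against 128 FPKM, and Sqstm1, a selective autophagy receptor that binds Keap1, averaged 123 ± 35.2 FPKM (SD, n = 2) in DKO and 51.7 ± 1.75 in WT (1.20 ± 0.28, adjusted p = 0.123).

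**Figure D5:**
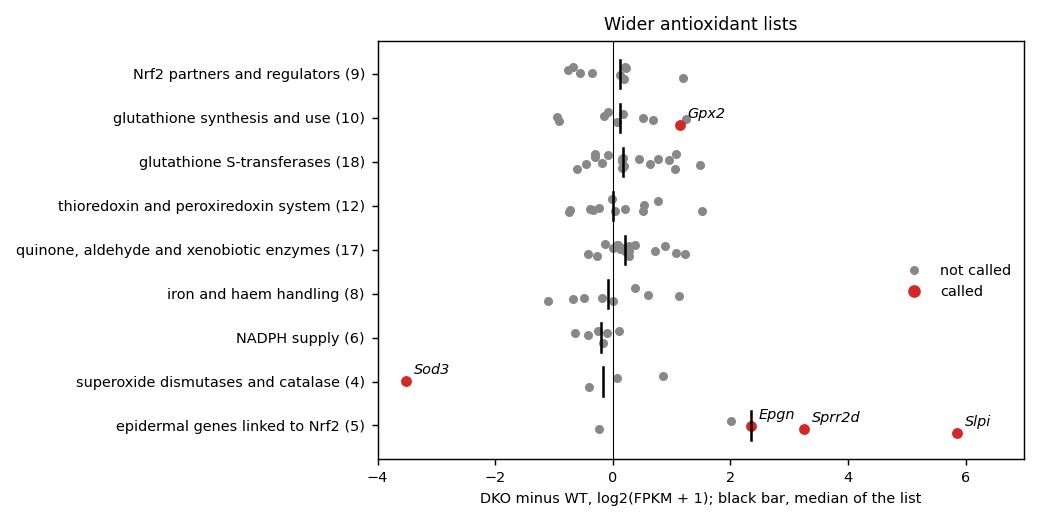
Difference between DKO and WT in log2(FPKM + 1) (horizontal axis) for the 89 tested genes of the 9 wider lists (rows, with the number of genes tested in brackets), with called genes in red and a black bar at the median of each list. The medians of 8 lists lie between -0.20 and 0.20, and the list of epidermal genes stands apart at 2.35. The lists were chosen with earlier results of these data known.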

How the data were processed

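The deposited values are FPKM per gene and library, which the authors obtained with Cuffdiff 2.2.0 after aligning paired reads by TopHat 1.4.1 (mm10, Ensembl 72); how Cuffdiff scaled libraries to each other is not given in the sources used here. Groups came from the labels of the 9 libraries, and the columns of genotype means were not used. Since counts are lacking, counting error is unknown, and the number of libraries limits the precision.

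After genes at or under 0.1 FPKM on average in all genotypes were dropped, log2(FPKM + 1) was fitted in limma 3.58.1 (R 4.3.3) with an intensity trend, a mean for each of 4 genotypes, 5 residual degrees of freedom and no covariate, and each of 7 comparisons was adjusted over all 16897 genes by the Benjamini-Hochberg method. Differences on this scale understate those of genes with low FPKM. Libraries are from single embryos, and p-values measure the spread between them. The script was tested on simulated data of the same design. Replicate numbers were not shared by litter or batch in the labels.

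The 10 genes, the wider lists, the marker lists, the tests and the rule for naming genes were chosen with earlier results of these data known. The rule named all 10 genes, called genes of the wider lists, up to 3 abundant genes of each list and, for each of the 10, the 3 genes of a mean FPKM of at least 1 with the smallest root mean square difference in centred log2(FPKM + 1). These nearest genes are printed only for Hmox1, Txnrd1 and Gclc. Marker lists also covered dermal fibroblasts, which summed to 44.2 to 75.3 FPKM in DKO and 74.6 to 85.4 FPKM in WT. Promoters were read from a RefSeq table. Alternatives were no filter, a filter at 1 FPKM, a pseudocount of 0.1, a fit of the compared genotypes alone, no trend, 3 scalings, arrayWeights, a replicate block, a loess correction for transcript length (span 0.5), no fold threshold, and leaving out each library. Tables were made with pandas 2.3.3 and numpy 2.4.6 and plots with matplotlib 3.10.9, in Python 3.11.15.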

Additional observations from a re-analysis of the deposited data

How the results depend on the processing

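The number of the 10 genes called in DKO against WT was 1. It was 0 with no filter, after rescaling to TPM and with the replicate number as a block, 2 (Nqo1 and Gsta4) in the fit of the compared genotypes alone, after quantile normalization and with arrayWeights, and 0 to 1 when single libraries were left out; leaving out a library leaves fewer samples and setting no filter adds genes to the adjustment, and otherwise the cause was not tested. In the other 6 comparisons no member was called under any alternative, the replicate block included. The block was no main setting because the labels tie the numbers to no litter or day, and the deviations of libraries that share a number correlated at -0.57 to 0.47. With it Nqo1 had an adjusted p of 0.146. The count of wider-list genes called in DKO against WT was 5. These alternatives were added after the data were seen, and it became 2 with no filter, 9 in the fit of the compared genotypes, 3 without a trend, 11 with arrayWeights, 2 with the replicate block, and 2 to 5 with single libraries left out. Over all genes, the 123 calls in DKO against WT became 67 with the replicate block and 556 with arrayWeights, and 54 to 152 with libraries left out; rescaling to TPM gave 96 higher and 82 lower calls in place of 81 and 42. Other counts over all genes ranged from 52 to 152 for DKO against KO, from 33 to 97 for DKO against KH, from 0 to 10 for KO against WT, from 0 to 5 for KH against WT and for KH against KO, and from 2 to 81 for all null libraries against WT, and with libraries left out the counts reached 102 for DKO against KH, 33 for KH against WT, 21 for KH against KO and 17 for KO against WT. Every difference given in the text for the 10 genes kept its sign in all alternatives run. The 43 differences not given there changed sign in 59 of 895 fits and were called in none. With 2 or 3 libraries a genotype and no counts, differences below the stated intervals could not be resolved.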
